A study of Mus musculus with 6 samples.

Results

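The SLAM family comprises immunoglobulin-type surface receptors of blood cells. Its members here are Slamf1, Cd48, Cd84, Ly9, Cd244, Slamf6, Slamf7, Slamf8, Slamf9 and the adaptor gene Sh2d1a, which encodes SAP. These are 10 of the 18193 genes with a probe set of their own on the arrays. Every probe set annotated to 1 of the 10 alone was taken, which gave 16 of the 45037 probe sets that are not controls. Cd244 carries its current symbol, Cd244a, in the annotation and was matched through that synonym. 6 genes had 1 probe set and 4 had several.

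RNA came from bone marrow cells of mice aged 2 to 3 weeks, sorted as negative for lineage markers and positive for Sca1, a gate enriched for stem cells. The 3 WT arrays were hybridised with wild-type RNA. The 3 DKO arrays were hybridised with RNA of mice lacking the nuclear receptor genes Nr4a1 and Nr4a3, bred from the single knockouts. Each array held 1 pool of 10 to 20 mice, so errors measure the spread of pools, and the number of arrays limits the precision. The DKO mice had a hybrid C57BL/6 and 129SvJ background, and the labels give no strain for WT. The SLAM gene cluster is known to differ in sequence between C57BL/6 and 129 mice, and here a strain difference and the genotype cannot be told apart. As a check of the labels, Nr4a1 signals were 1110.5, 1269.4 and 816.3 in WT and 8.0, 22.4 and 33.8 in DKO. All 3 Nr4a3 probe sets were under the filter on low values, and none passed in a fit without it (adjusted p = 0.197, 0.935 and 0.401). One gave 40.4, 61.8 and 51.5 in WT and 20.9, 4.0 and 0.6 in DKO with no overlap, and the groups overlapped for the other two.

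Most SLAM receptors bind the same receptor on a neighbouring cell. CD48, the product of Cd48, instead binds 2B4, the product of Cd244, and also CD2. The tails of most of these receptors carry tyrosine switch motifs that dock SAP or phosphatases. In bone marrow, CD150, the product of Slamf1, marks haematopoietic stem cells, while CD48 and 2B4 appear on more committed progenitors, so these proteins are used to sort stem cells from progenitors. Neither CD150 nor CD48 was part of the sort used here, per the labels.

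None of the SLAM family probe sets passed the test between DKO and WT. Values are MAS5 signals, a linear brightness of each probe set, scaled by the authors to the same trimmed mean on every array. Differences are those of log2(signal + 16), DKO minus WT, with the standard error (SE) and the Benjamini-Hochberg adjusted p of limma over all 27022 probe sets that passed a filter on low values. The threshold was an adjusted p of 0.05. The 95% intervals given are those of each probe set alone, with no adjustment. Of the 16 probe sets, 11 from 7 genes passed the filter, and 0 of these 11 passed the threshold with limma, against 1.37% of all probe sets tested. An unadjusted p under 0.05 was found for 2 of the 11, a probe set of Cd244a and a probe set of Cd84, against 14.2% of all tested. Neither count shows the family to stand out from other probe sets, and the missing calls do not show equal levels.

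**Figure D1:**
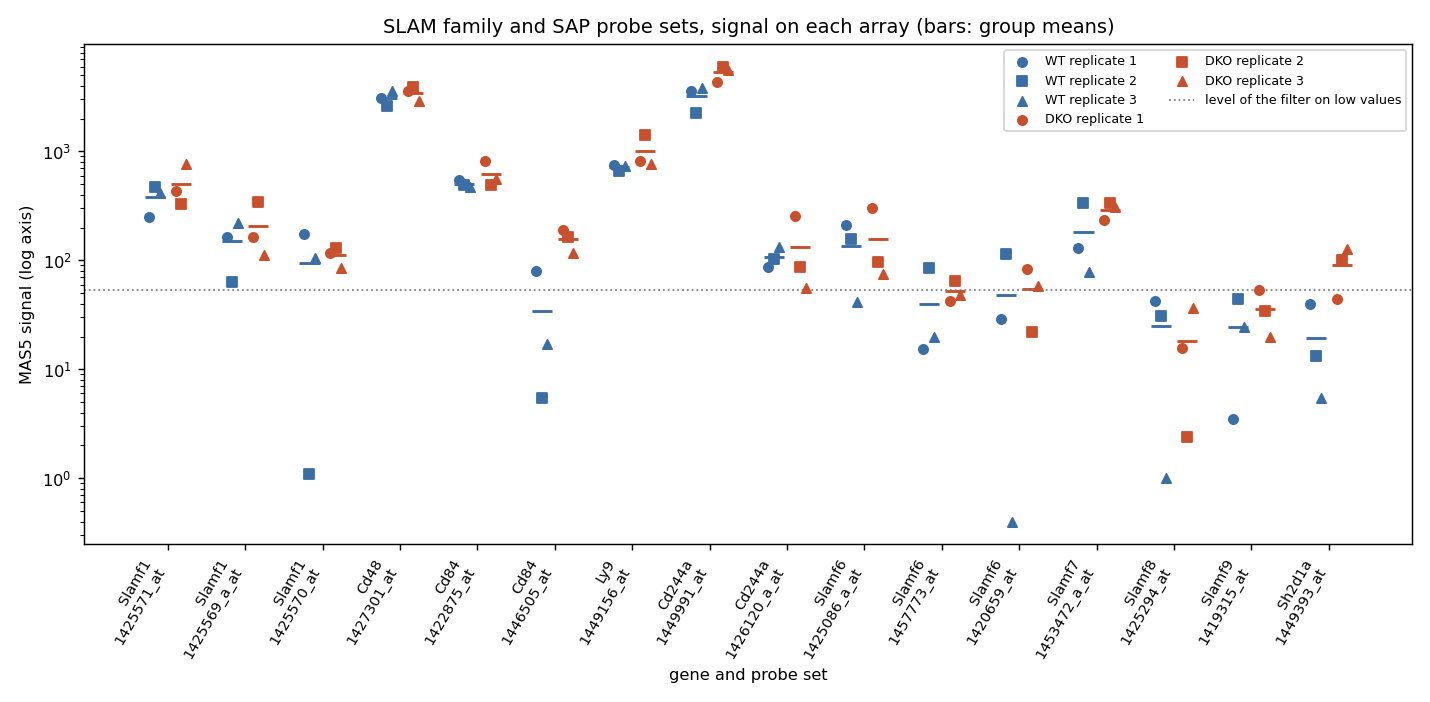
MAS5 signal (log axis) of the 16 probe sets on each of the 3 WT arrays (blue) and 3 DKO arrays (orange), with bars at the group means and a dotted line at the signal that equals the limit of the filter on low values, 53.2. The DKO arrays lie wholly above the WT arrays for 1449991_at of Cd244a, 1446505_at of Cd84, 1449156_at of Ly9 and 1449393_at of Sh2d1a, and the groups overlap for the other 12.

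The groups did not overlap for 4 of the 16 probe sets, all with DKO above WT. They belonged to Cd244a, Cd84, Ly9 and Sh2d1a. Over all 45037 probe sets the DKO arrays lay wholly above the WT arrays for 7.70% and wholly below for 8.68%. The lowest of the 6 signals was on a WT array for 15 of the 16 probe sets, against 50.6% of all probe sets, and the highest was on a DKO array for 11, against 45.7%. The difference was above 0 for 15 of 16 probe sets, against 47.6% of all probe sets. By the brightest probe set it was above 0 for 9 of 10 genes, against 49.2% of the 11529 genes with a probe set past the filter. Of the 10 genes, 3 had none past it. The median difference was 0.45 over the 16 probe sets and -0.03 over all probe sets. Probe sets of the same gene share their transcript, so these counts are a description and carry no test. The 15 positive differences were 15 as well with quantile normalization or median centring, and 13 to 16 with an array left out.

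**Figure D2:**
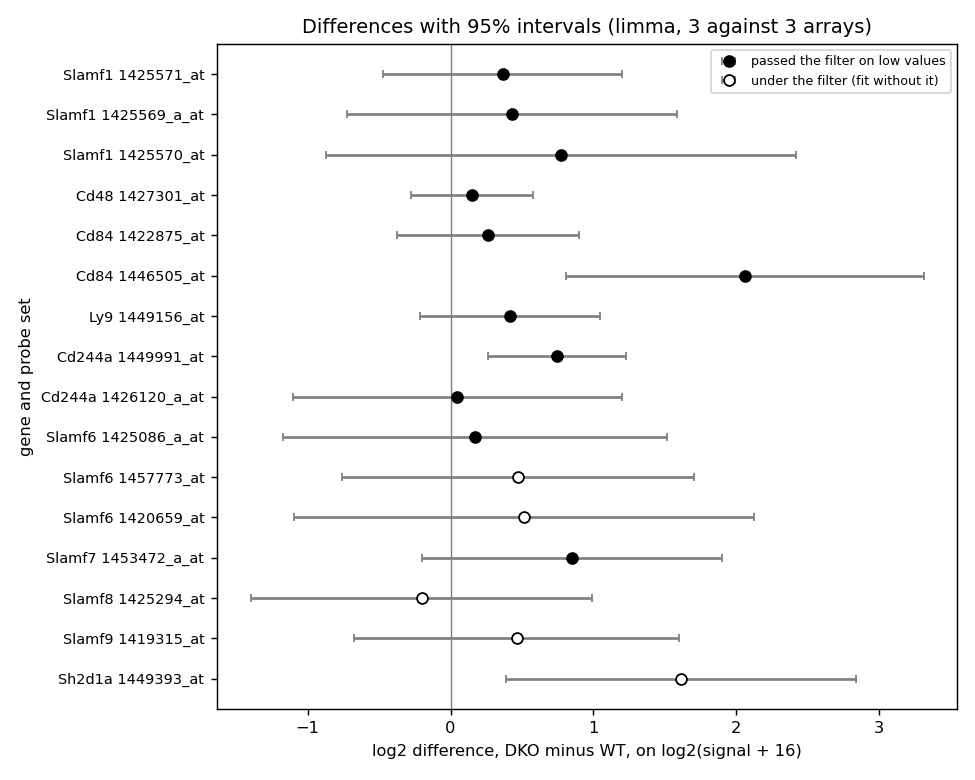
Log2 differences (DKO minus WT, on log2(signal + 16)) of the 16 probe sets with 95% intervals from limma; filled points passed the filter on low values and open points, which did not, come from the fit to all probe sets. 15 of 16 points lie above 0, and the interval leaves out 0 for 1446505_at of Cd84, 1449991_at of Cd244a and 1449393_at of Sh2d1a, none of which passed after adjustment.

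Slamf1, the stem cell marker, was measured by 3 probe sets that all derive from 1 sequence record, and they did not follow each other across the arrays. The brightest, 1425571_at, gave 248.5, 468.7 and 418.9 in WT replicates 1 to 3 and 431.4, 328.3 and 758.1 in DKO replicates 1 to 3. DKO replicate 3 was the highest and WT replicate 1 the lowest, and the groups overlapped. Its difference was 0.37 ± 0.38 (SE, n = 3 per group, adjusted p = 0.725), with a 95% interval from -0.47 to 1.20. That interval spans 0.721-fold to 2.30-fold on the log2(signal + 16) scale. The difference was 0.04 without DKO replicate 3 and 0.10 without WT replicate 1.

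The second Slamf1 probe set, 1425569_a_at, gave 165.2, 63.4 and 221.4 in WT and 165.2, 345.2 and 111.3 in DKO. Here DKO replicate 3 was the lowest DKO array, while it was the highest for 1425571_at. The third, 1425570_at, gave 174.4, 1.1 and 105.3 in WT and 117.1, 130.8 and 84.5 in DKO. WT replicate 2 was near the floor of the scale for this probe set, although 1425571_at was at its highest WT signal there. The differences were 0.43 ± 0.53 (adjusted p = 0.775) and 0.77 ± 0.75 (adjusted p = 0.700). The second of these was 1.70 with an offset of 1 and 0.33 with an offset of 64. Without WT replicate 2 both turned below 0, to -0.03 and -0.28, and 1425569_a_at was at 0.012 without DKO replicate 2. The 3 probe sets therefore give no common direction for Slamf1 that holds without that array.

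**Figure D3:**
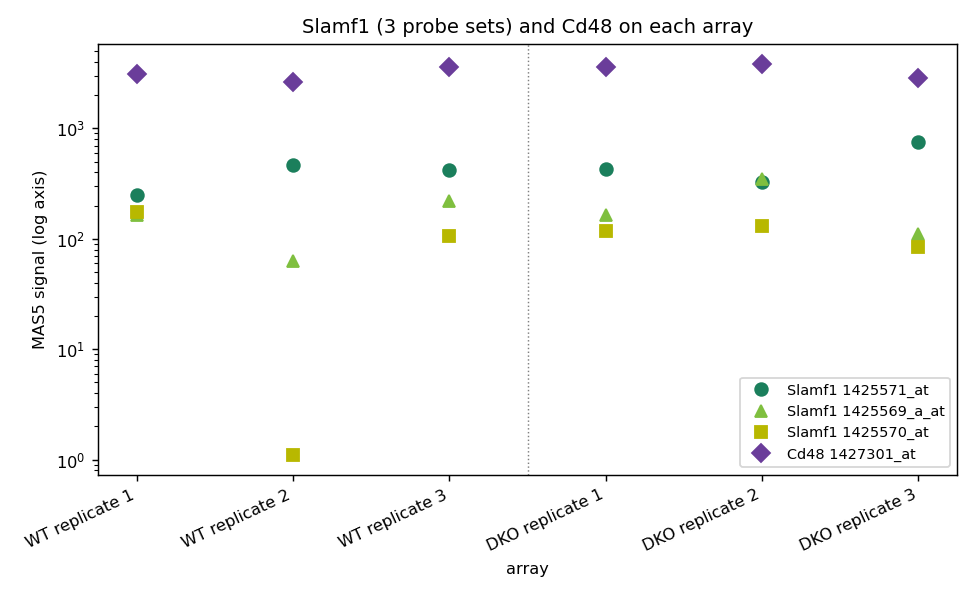
MAS5 signal (log axis) of the 3 Slamf1 probe sets and of Cd48 on each array, WT to the left and DKO to the right of the dotted line. Cd48 lies between 2622.0 and 3867.6 on all 6 arrays, while the Slamf1 probe sets cross each other, with 1425570_at at 1.1 in WT replicate 2.

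Cd48, which encodes the ligand of 2B4 and marks progenitors, had the tightest interval of the family. Its only probe set, 1427301_at, gave 3089.3, 2622.0 and 3618.8 in WT and 3586.7, 3867.6 and 2884.7 in DKO. DKO replicate 3 lay below WT replicates 1 and 3, so the groups overlapped. Means were 3110 ± 499 (SD, n = 3) in WT and 3446 ± 506 in DKO, a difference of 0.15 ± 0.19 (SE, adjusted p = 0.790). The 95% interval of this probe set, -0.28 to 0.57, spans 0.826-fold to 1.49-fold. The difference was 0.033 without WT replicate 2, 0.061 without DKO replicate 2 and 0.27 without DKO replicate 3.

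The brightest probe sets of Slamf1 and Cd48 were also compared within each array, as the log2 value of Slamf1 minus that of Cd48. This within-array difference was -3.55, -2.44 and -3.06 in WT and -3.01, -3.50 and -1.91 in DKO. DKO replicate 3 was the highest array and the other DKO arrays lay within the WT range, so the groups overlapped. The shift of DKO against WT was 0.22, with p = 0.6 in a two-sided exact permutation test, which cannot go below 0.1 with 3 against 3 arrays. The shift turned to -0.23 without DKO replicate 3 and to -0.05 without WT replicate 1. An unequal change of the stem cell marker and the progenitor marker was not detectable with these arrays.

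Cd244a, which encodes the CD48 receptor 2B4 of progenitors and natural killer (NK) cells, had the clearest separation among the bright probe sets. Probe set 1449991_at gave 3547.9, 2253.2 and 3831.7 in WT and 4376.7, 5981.6 and 5530.0 in DKO. All 3 DKO arrays lay above all 3 WT arrays, with WT replicate 2 the lowest. Means were 3211 ± 842 (SD, n = 3) and 5296 ± 828, a difference of 0.74 ± 0.22 (SE), or 1.67-fold with a 95% interval of 1.20 to 2.34. Its unadjusted p was 0.00590 and its adjusted p 0.142, so it did not pass. With an array left out the difference lay between 0.51, without WT replicate 2, and 0.89, and adjusted p between 0.109 and 0.369.

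The other Cd244a probe set, 1426120_a_at, was dim and gave 87.0, 103.3 and 133.8 in WT and 257.7, 87.7 and 55.6 in DKO. DKO replicate 1 was the highest array and DKO replicate 3 the lowest, so the DKO arrays enclosed the WT arrays. The difference was 0.05 ± 0.53 (adjusted p = 0.982), and it was -0.51 without DKO replicate 1 and -0.08 without WT replicate 1. Its 95% interval, -1.10 to 1.20, holds the 0.74 of the bright probe set. Its name marks it as made for several transcripts of the gene.

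Ly9 and Cd84 encode self-binding receptors of lymphocytes and other blood cells. Ly9 probe set 1449156_at gave 752.7, 654.4 and 734.6 in WT and 809.0, 1426.5 and 759.1 in DKO. The groups did not overlap, but the margin between WT replicate 1 and DKO replicate 3 was small and DKO replicate 2 stood well above the rest. The difference was 0.42 ± 0.29 (adjusted p = 0.557), and 0.13 without DKO replicate 2.

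The bright Cd84 probe set, 1422875_at, gave 543.1, 496.6 and 475.5 in WT and 813.5, 495.8 and 556.5 in DKO. Only DKO replicate 1 stood above the others. The difference was 0.26 ± 0.29 (adjusted p = 0.744), and the 95% interval spans 0.772-fold to 1.87-fold. It was 0.057 without DKO replicate 1 and 0.41 without DKO replicate 2.

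A dim Cd84 probe set, 1446505_at, had the largest difference of the family. It gave 79.6, 5.5 and 17.2 in WT and 188.8, 165.5 and 117.0 in DKO, so all DKO arrays lay above all WT arrays. The difference was 2.06 ± 0.57 (unadjusted p = 0.00386, adjusted p = 0.117), with a 95% interval from 0.81 to 3.31. It passed the filter through its DKO signals, and its size depends on the offset, at 2.87 with an offset of 1 and 1.23 with an offset of 64. With an array left out adjusted p ranged from 0.0633, without WT replicate 1, to 0.305. Both Cd84 probe sets were above 0, but the intervals of 0.81 to 3.31 and -0.37 to 0.90 share only a narrow range.

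Slamf6 encodes a self-binding receptor of T, B and NK cells. Its brightest probe set, 1425086_a_at, gave 210.6, 156.9 and 41.8 in WT and 301.5, 96.3 and 75.0 in DKO. DKO replicate 1 was the highest array and WT replicate 3 the lowest, and the groups overlapped. The difference was 0.17 ± 0.62 (adjusted p = 0.939). It turned to -0.42 without WT replicate 3 and to -0.38 without DKO replicate 1. The other Slamf6 probe sets were under the filter. Probe set 1420659_at gave 28.9, 114.8 and 0.4 in WT and 83.2, 21.8 and 58.6 in DKO, and 1457773_at gave 15.4, 85.3 and 19.7 against 42.5, 65.1 and 48.0. WT replicate 2 was the highest array for both.

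Slamf7 encodes a receptor that is abundant on plasma cells and NK cells. Probe set 1453472_a_at gave 131.0, 334.4 and 78.2 in WT and 236.1, 333.9 and 306.9 in DKO. WT replicate 2 lay level with the highest DKO array, and the other WT arrays lay below all DKO arrays. The difference was 0.85 ± 0.48 (adjusted p = 0.454), with a 95% interval from -0.20 to 1.90. It was 1.38 without WT replicate 2 (adjusted p = 0.159) and 0.43 without WT replicate 3 (adjusted p = 0.720).

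Slamf8 and Slamf9, the family members with short tails found mainly on myeloid cells, were both under the filter. Slamf8 probe set 1425294_at gave 42.6, 30.9 and 1.0 in WT and 15.7, 2.4 and 36.5 in DKO. It was the only probe set of the family with a difference below 0, at -0.20 ± 0.54 (adjusted p = 0.935 in a fit without the filter), and was 0.18 without DKO replicate 2 and 0.15 without WT replicate 1. Slamf9 probe set 1419315_at gave 3.5, 44.5 and 24.6 in WT and 53.4, 34.5 and 19.8 in DKO, a difference of 0.46 ± 0.52 (adjusted p = 0.808 in the same fit) that was 0.015 without WT replicate 1. At such dim signals the arrays give no order for either gene.

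Sh2d1a, the gene of the adaptor SAP, lies on the X chromosome and is known mainly from T and NK cells. Its probe set, 1449393_at, gave 39.5, 13.2 and 5.5 in WT and 44.4, 99.9 and 126.6 in DKO. The groups did not overlap, though WT replicate 1 and DKO replicate 1 were close. The difference was 1.61 ± 0.56, with a 95% interval from 0.38 to 2.84. It was under the filter, and did not pass in the fit without it (adjusted p = 0.296). The value was 2.43 with an offset of 1 and 0.87 with an offset of 64.

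The receptor genes all lie on chromosome 1. By the RefSeq gene order of assembly GRCm38.p6, Cd244a, Ly9, Slamf7, Cd48, Slamf1, Cd84 and Slamf6 follow in that order within 8 coding genes, and Slamf9 and Slamf8 lie farther along. Of the members with groups that did not overlap, Cd244a and Ly9 open the cluster and Cd84 lies next to its other end, with Slamf7, Cd48 and Slamf1 between them. Of 19 neighbouring genes listed around the cluster, 17 had a probe set of their own, 11 passed the filter, 5 were above 0 and 6 below, and 0 passed the threshold, against 1.71% of 11529 genes. Their median difference was -0.15, against -0.01 over all genes. The smallest p values among the neighbours were those of the transcription factor gene Usf1 and of Dcaf8. Usf1 gave 165 ± 30 (SD, n = 3) in WT and 358 ± 74 in DKO (1.04 ± 0.36, adjusted p = 0.201). Dcaf8, a substrate receptor of a ubiquitin ligase, gave 3986 ± 276 and 2934 ± 145 (-0.44 ± 0.17, adjusted p = 0.248).

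Signalling partners of the receptors were described from a list of 24 adaptors, kinases, phosphatases and the CD48 receptor gene Cd2. Of these, 19 had a probe set of their own and all 19 passed the filter. The adaptors EAT-2 and ERT share a probe set and were not named from it. In the list 10 genes were above 0 and 9 below, the median was 0.01, and 0 passed the threshold. The kinase gene Src had the smallest p, at 134.8, 200.1 and 288.3 in WT and 38.0, 100.6 and 57.0 in DKO. All DKO arrays lay below all WT arrays, and the difference was -1.48 ± 0.47 (adjusted p = 0.165). Cd2, also a T and NK cell marker, gave 109.6, 164.6 and 83.2 in WT and 359.8, 179.4 and 458.3 in DKO, and all DKO arrays lay above all WT arrays (1.32 ± 0.44, adjusted p = 0.193).

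The levels of other cell types moved between the groups and within WT. In bulk RNA, fewer cells of a type and less RNA per cell cannot be told apart. Over all genes, 1.08% rose and 0.633% fell. All 13 measured genes of the T and NK cell list were above 0 in DKO, 8 rose, and the median was 2.43. That median was 3.04 with an offset of 1 and 1.93 with an offset of 64. None of the list's genes was listed at 0, and the dimmest in WT were Cd3e at 13.3 and the granzyme gene Gzmb at 19.2. Both passed the filter through their DKO signals. The same held for Tbx21 and Ncr1, with WT means of 39.2 and 27.4. It also held narrowly for Cd3d, whose WT signals of 35.2, 65.8 and 61.3 lay near the limit. Of these genes all but Ncr1 are among the 8 that rose. The summed signal of the list was 943.1 to 1860.8 in WT and 11037.7 to 16969.5 in DKO. The mast cell and basophil list was above 0 in 8 of 8 genes and 5 rose (median 2.87, summed signal 1713.2 to 1947.5 against 8607.0 to 11609.5). Its median was 2.08 with an offset of 64 and 3.65 where the filter took out 60% of probe sets. Among the 5, Fcer1a passed the filter through its DKO signals, with means of 10.2 in WT and 184.7 in DKO. Cma1, Tpsb2 and Gata2 were above 0, at 0.08, 0.65 and 0.18, but did not pass the threshold. Of these, Tpsb2 passed the filter through its DKO signals, with means of 45.8 and 85.4. In the plasma cell list 5 of 7 genes were above 0, 2 were below 0, and 2 rose (median 0.88, or 0.47 with the 60% filter). Its summed signal was 3399.2 to 4613.8 in WT and 19869.6 to 47521.4 in DKO. The 2 genes that rose made up most of that gap. Means went from 780.6 in WT to 23314.8 in DKO for Igha, and from 398.7 to 7940.1 for Jchain. The 2 genes below 0 were Sdc1 and Mzb1. Sdc1 went from 1364.6 to 864.5, with all DKO arrays below all WT arrays (-0.74, adjusted p = 0.351 with limma). Mzb1 was at -0.07, and Irf4, at 0.05, was close to level. The monocyte, macrophage and dendritic cell list was above 0 in 9 of 11 genes, and 5 rose (median 1.77, summed signal 2511.5 to 6962.7 against 13160.6 to 15755.4). Its median was 2.44 with the 60% filter and 2.26 without WT replicate 2.

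The stem cell list was below 0 in 13 of 13 genes and 6 fell (median -1.33), with a summed signal of 34185.6 to 40815.1 in WT and 14967.2 to 18715.4 in DKO. Slamf1, a marker of the same cells at the protein level, had a difference above 0 at each of its 3 probe sets, none past the threshold and 2 of them below 0 without WT replicate 2. The multipotent and lymphoid-primed progenitor list was below 0 in 4 of 7 genes and 1 fell (median -0.66, summed signal 21611.7 to 33854.7 against 17564.3 to 21257.4). That median was -0.001 without DKO replicate 3 and -0.35 without WT replicate 3. In the megakaryocyte and platelet list, whose cells can also carry CD150, 5 of 7 genes were above 0 and 1 rose (median 0.67, summed signal 1881.5 to 2441.1 against 3432.8 to 4650.8), and the median was 0.18 without WT replicate 2. The mean level of this list overlapped between the groups. Itgb3, the gene that rose, had means of 906.8 in WT and 2196.2 in DKO.

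The B lineage list (0 of 9 genes past the threshold, median -0.71), the neutrophil list (0 of 9, median -0.15) and the erythroid list (0 of 6, median -0.24) overlapped between groups in their mean level. The summed signal of the B lineage list did not overlap: DKO arrays, at 1772.6 to 2128.7, all lay below WT arrays, at 2514.3 to 9337.7. Without WT replicate 2 the medians were -0.17, 0.57 and 0.51, and without WT replicate 3 they were -1.20, -0.85 and -0.996. All 3 lists were highest in WT replicate 2, with summed signals of up to 9337.7, 85058.4 and 39510.7 there. WT replicate 2 was also the highest WT array for Slamf1 probe set 1425571_at, for Slamf7, for 2 probe sets of Slamf6 and for Slamf9, and the lowest of all arrays for Cd48, Ly9, the bright Cd244a probe set, the dim Cd84 probe set and 2 probe sets of Slamf1. The part of these cell types in the SLAM family values was not tested.

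**Figure D4:**
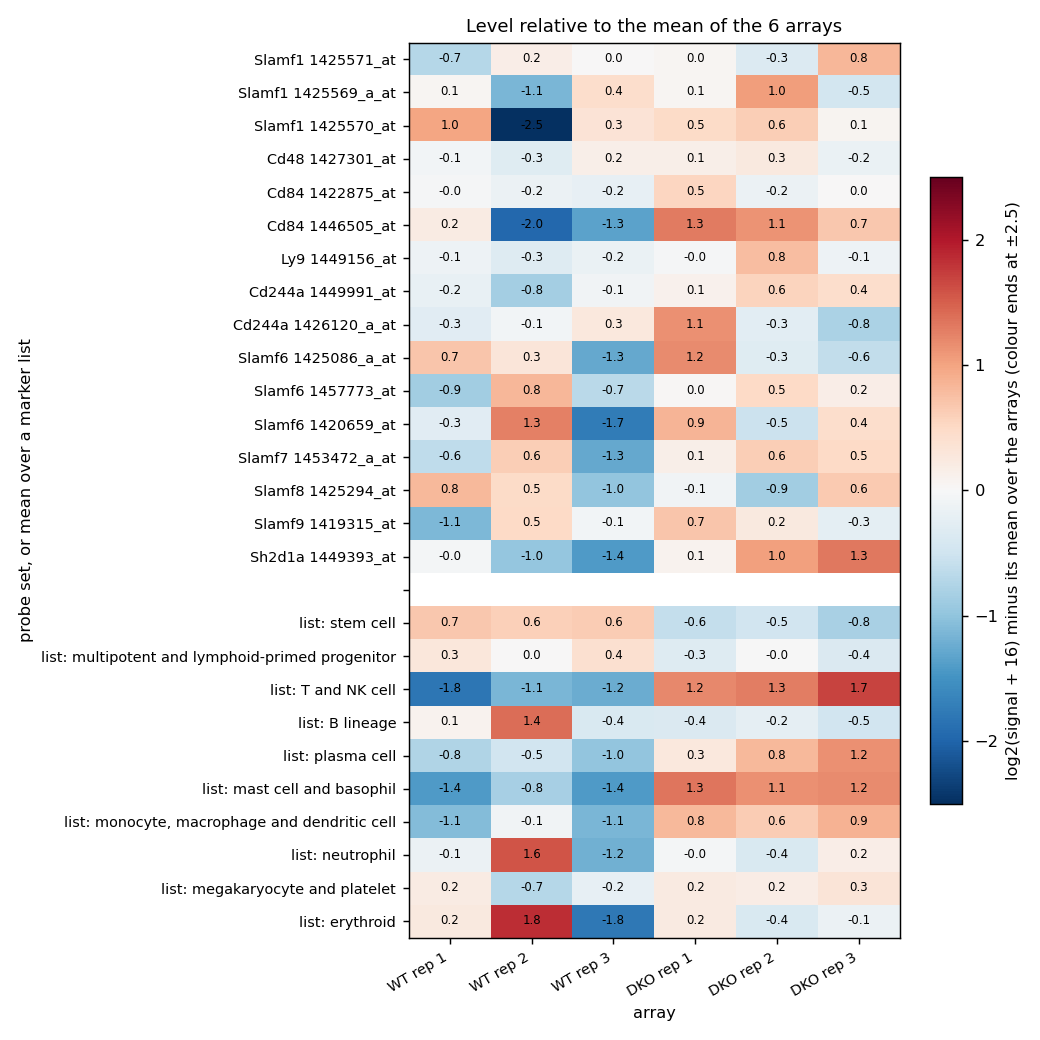
Level of each of the 16 probe sets, and mean level of each marker list, on each array as log2(signal + 16) minus its mean over the 6 arrays (red above, blue below, colour ending at 2.5 either way). The lists of T and NK cells, of mast cells and basophils, of plasma cells and of monocytes, macrophages and dendritic cells are below 0 on all 3 WT arrays. They are above 0 on all DKO arrays. The same holds for 1449991_at of Cd244a and 1449393_at of Sh2d1a, at sizes of up to -0.84 and -1.41 in WT and 0.56 and 1.32 in DKO. Sh2d1a was close to 0 in replicate 1, at -0.042 in WT and 0.08 in DKO. The other Cd244a probe set, 1426120_a_at, was below 0 in DKO replicates 2 and 3, at -0.265 and -0.799.

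Of 9 genes listed to check the sort, 5 had a probe set of their own. Kit, the stem cell factor receptor, which the labels do not name in the gate, gave 2779 ± 312 in WT and 1825 ± 144 in DKO (-0.60 ± 0.19, adjusted p = 0.166). The lineage genes Cd4, Cd8a and Itgam were dim, at 45.9, 55.2 and 75.9 in WT and 49.1, 105.9 and 114.8 in DKO. Cd3e, a chain of the T cell receptor complex and usually a lineage marker, rose from 13.3 ± 8.7 to 231.3 ± 39.6 (3.11 ± 0.46, adjusted p = 0.00706). It passed the filter through its DKO signals, and its size depends on the offset, at 4.30 with an offset of 1 and 1.93 with an offset of 64. It was under the filter when any 1 DKO array was left out. Ly6a, the Sca1 gene itself, was not analysed here.

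Genes with array patterns most like those of Slamf1 and Cd48 were sought among 11528 others, by the root mean square difference of mean-centred log2 values over the 6 arrays. For Slamf1, whose own spread was 0.47, they were Telo2 at 0.11, Snx15 at 0.13 and Cmc2 at 0.13. Each was lowest in WT replicate 1 and highest in DKO replicate 3, as Slamf1 probe set 1425571_at was. For Cd48, whose own spread was 0.20, they were the glucocorticoid receptor gene Nr3c1 at 0.03, Nmral1 at 0.04 and Stxbp2 at 0.05. With so many genes compared, this likeness is a description of the 6 arrays.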

How the data were processed

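The deposited table holds 1 MAS5 signal, a linear intensity, per probe set and array; MAS5 without a version is named per the submitters' processing notes. A genome build was not given in the labels. The trimmed mean of each array was 500 in the deposited values, so the authors' scaling was kept. Median signals were 91.7 to 122.6. Of 45101 probe sets 64 controls were left out; 34945 had 1 gene symbol, 932 several and 9160 none, and 34741 of the first were matched by gene identifier to RefSeq (0 symbols changed). 0 columns belonged to other samples.

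Values were taken as log2(signal + 16), and probe sets whose mean fell in the lowest 40% were dropped (a signal of about 53.2). The rest were fitted with limma 3.58.1 in R 4.3.3 (lmFit, eBayes with an intensity trend, two-sided, no block). The members and lists were chosen with earlier results of these data known. Named are all members, in the partner and neighbour lists up to 4 genes past the threshold or else the 2 with the smallest p, in marker lists at most 2 past it, the sort markers, and the 3 nearest patterns to Slamf1 and Cd48. A gene in a list is represented by its brightest probe set. Pools are separate samples per the labels.

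Of same-numbered WT and DKO arrays the deviations correlated at 0.14, -0.03 and 0.05, so the numbers do not pair them. On simulated arrays with 27022 probe sets, for DKO against WT, the fit recovered 6% of 50 changes of log2 1, 44% at 2, 90% at 3 and 86% at 4, with 6 false calls. Simulated signals were kept positive, so large downward changes of dim probe sets came out smaller than the size named. Alternatives were offsets of 1 and 64, no filter or one of 60%, quantile normalization, median centring, no trend, array weights, a replicate block, probe sets of a gene averaged, and each array left out. With median centring the median difference over the tested probe sets was 0.06 in place of -0.05, which shifts every difference by 0.11. Figures used matplotlib 3.10.9 in Python 3.11.15.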

Additional observations from a re-analysis of the deposited data

How the results depend on the processing

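In all 15 alternatives 0 SLAM family probe sets passed the threshold of limma, and in 16 alternatives 0 partner and 0 neighbour genes did. The count of all probe sets past it, 370, was 208 unfiltered, 88 when no intensity trend was used, 563 with array quality weights and 104 to 469 with an array left out. With the replicate block the Cd244a probe set 1449991_at stayed at 0.74 (adjusted p = 0.146) and the Cd84 probe set 1446505_at at 2.06 (adjusted p = 0.106). The block changed no call among SLAM family, partner and neighbour genes, and 312 of all probe sets passed with it. The Slamf1 minus Cd48 shift stayed at 0.22 (exact sign-flip p = 0.75), in a test that cannot fall under 0.05 with 3 pairs. Leaving out an array put that shift between -0.23 and 0.56, and at -0.050 without WT replicate 1. The same moved Slamf1 1425569_a_at between -0.033 and 0.76 and 1425570_at between -0.28 and 1.46, both negative without WT replicate 2. Cd244a 1426120_a_at lay between -0.51 and 0.46, negative without DKO replicate 1 or WT replicate 1 (-0.078), and Slamf6 1425086_a_at between -0.42 and 0.57, negative without WT replicate 3 or DKO replicate 1 (-0.38). The cause of these shifts was not tested. The simulation, whose changes fell on probe sets of any brightness, recovered 6% at log2 1. That share need not hold for a given member. The 95% interval of Cd48, 0.826-fold to 1.49-fold, leaves out a 2-fold change.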
